A study of Mus musculus with 15 samples.

Results

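Heterotrimeric G proteins and the RGS proteins that limit their signals were followed through 2 brain regions, the cerebellum (Ce) and the striatum (St), in mice bred for high voluntary wheel running (Hi) and in control mice (Co). The members were all genes of the expression table whose symbols name a G protein α subunit (Gnas, Gnal, Gnai1 to Gnai3, Gnao1, Gnaz, Gnaq, Gnat1, Gnat2 and Gna11 to Gna15), a β subunit (Gnb1 to Gnb5), a numbered γ subunit (Gng) or a numbered RGS gene or RGS binding protein (Rgs, with Rgs7bp and Rgs9bp). This rule, which uses names and no measured value, found 53 of the 26628 genes in the table. Of these, 43 reached 1 CPM (normalized counts per 1000000) in at least 3 samples and were tested. The other 10, described with their families, were Gna14, Gnat1, Gnat2, Gnb3, Gng8, Rgs1, Rgs13, Rgs18, Rgs21 and Rgs9bp.

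A G protein is an α subunit bound to a βγ pair, and a receptor switches it on by exchanging GDP for GTP on the α subunit. The α class sets the target: Gs and its relative Golf stimulate adenylyl cyclase, Gi and Go inhibit it and act on ion channels through released βγ, and Gq activates phospholipase C-β. RGS proteins speed up GTP hydrolysis by α subunits and so end the signal. In the striatum, some of the dopamine and adenosine receptors of medium spiny neurons couple to Golf, and RGS9 works there with the β5 subunit. In the cerebellum, Gq-coupled metabotropic glutamate receptors act in Purkinje cells.

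There were 4 samples each of CeCo, CeHi and StCo and 3 of StHi (a further StHi sample had been removed by the authors), all from male Hsd:ICR mice labelled as 6 weeks old, and every mouse had a running wheel for 7 days. Each line was a single line, so that selection and drift between these 2 lines cannot be told apart, and the mice were not sibs. Per the study, Hi mice also ran more and faster than Co mice before dissection. Inherited line differences and effects of the running itself therefore cannot be told apart. Whole Ce and St were dissected, and replicates carry the numbers 0 to 3 of their labels. Values are fragment counts per gene divided by a library-size factor (normalized counts), not divided by gene length, from 32909386 to 47485536 fragments per sample, in which 1 fragment was worth 0.841 to 1.30 normalized counts.

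The labels of the regions were checked against cell markers. All 13 medium spiny neuron markers tested were higher in St, all 10 granule cell markers were higher in Ce, and of 10 Purkinje cell markers 9 were higher in Ce while Gad1, shared by all GABAergic neurons, was higher in St. Among the Ce samples 1 stood apart: in CeHi replicate 3 the medium spiny neuron markers had a median of 2.01% of their StCo mean, against 0.51% to 0.68% in the other Ce samples. In StHi replicate 1 the markers of cortical pyramidal cells had a median of 43.9% of their StCo mean. This median was 71.5% and 92.6% in the other StHi samples and 79.3% to 116% in StCo. Granule cell markers in the St samples were at 1.45% to 3.98% of their CeCo mean. Choroid plexus markers summed to between 8043 and 191193 normalized counts in CeCo and between 9097 and 170099 in CeHi, so that Ce dissections of both lines differed widely in this tissue. In St these sums were 8473 to 11496 in StCo and 12242 to 38741 in StHi. In whole tissue, fewer cells of a type and less RNA per cell cannot be told apart.

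The first comparison asked how the 2 regions differ, as the mean St minus Ce difference over both lines. The G protein and RGS genes were mostly higher in St: 36 of 43 passed the test, 28 higher in St and 8 higher in Ce. Of all 15213 genes tested, 80.2% passed, 39.6% higher in St and 40.6% higher in Ce, so the share that passed was near the background. The median member was 0.56 higher in St on the log2 scale against -0.01 for all genes, and the median size of the difference was 0.92 against 0.44. The values of all St samples lay above all Ce samples for 24 members and below them for 6, in total 30 of 43, against 55.2% of all genes (27.7% and 27.5%). Differences over 2 on the log2 scale were found in 10 members higher in St (background 7.21%) and in 2 higher in Ce (background 3.52%). The count of 36 was the same without CeHi replicate 3.

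**Figure D1:**
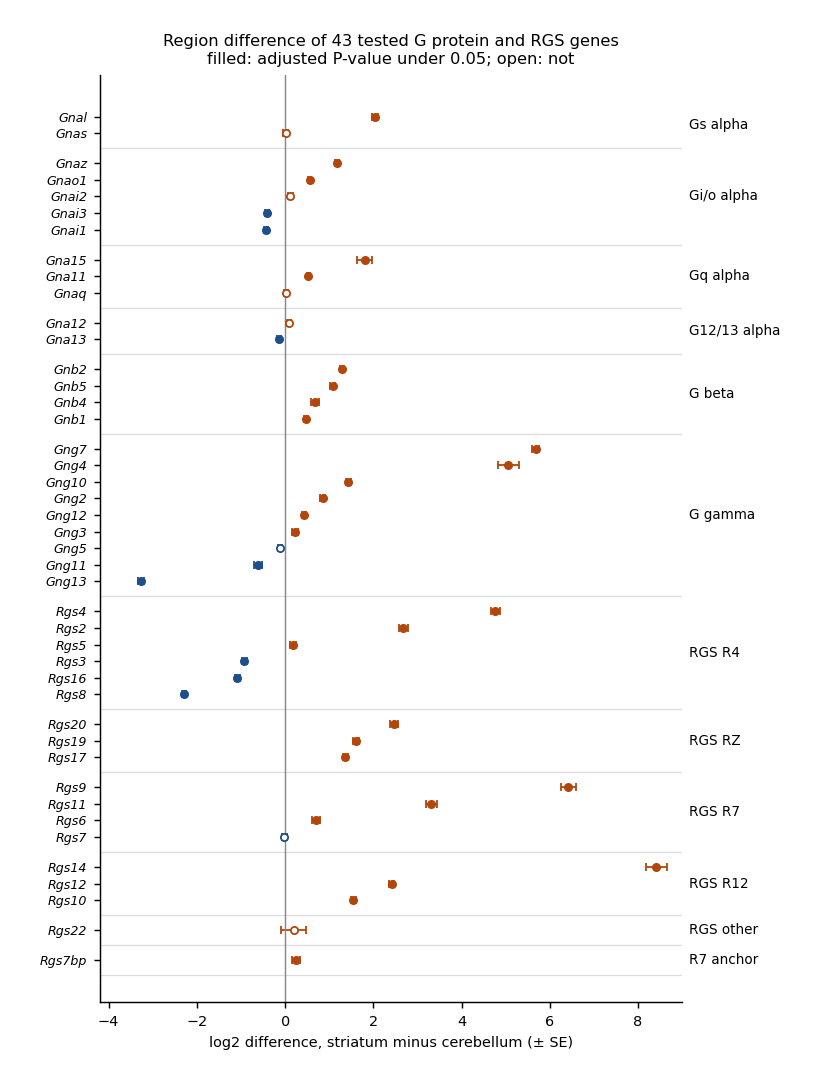
Region difference of each tested member, by family, as St minus Ce on the log2 scale with its standard error. Filled points passed the test and open points did not. Rgs14 (8.42), Rgs9 (6.42), Gng7 (5.68), Gng4 (5.06) and Rgs4 (4.76) lie far to the St side, and Gng13 (-3.27) and Rgs8 (-2.30) to the Ce side.

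Among α subunits Golf had the largest region difference. Of 12 tested, 5 were higher in St and 3 higher in Ce, with a median of 0.10, and besides Gnal (2.03) the differences of Gna15 (1.80) and Gnaz (1.17) exceeded 1 on the log2 scale. Gnas, which encodes Gsα, had a median of 44151 normalized counts in Ce (41927 to 49047) and of 47540 in St (37944 to 50016), a difference of 0.01 ± 0.05 (SE, log2; 95% interval -0.10 to 0.13; adjusted P-value 0.82). Gnal, which encodes Golf, had a median of 7807 in Ce (7441 to 9134) and of 35299 in St (27596 to 37667), with no overlap, and was 4.09-fold higher in St (log2 2.03 ± 0.07, adjusted P-value 7.97e-14). Its Ce level was thus not near the floor: each Ce sample held 22.8% to 28.0% of the StCo mean of Gnal.

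Per kilobase of merged exons, which allows levels of different genes to be compared, Gnas was the higher of the 2 genes in both regions. Gnal made up 15.4% ± 1.10 (SD, n = 8) of their summed level per kilobase in Ce and 42.2% ± 5.58 (n = 7) in St, and the shares did not overlap (13.5% to 17.0% against 35.9% to 49.1%). With the longest transcript as length, the shares of Gnal were 11.1% and 33.5%. Gnas overlaps antisense transcripts over 22.0% of its exons, and the strand used in counting is not stated.

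The Gi/o class split between the regions. Gnao1, the Goα gene and the α subunit most common in brain membranes, was 1.47-fold higher in St (Ce median 22156, 20340 to 23341; St median 31959, 30675 to 33722), and Gnaz, whose product resists pertussis toxin, was 2.25-fold higher (984 against 2311). Gnai1 was 1.35-fold higher in Ce, with a median of 11344 (10358 to 12440) in Ce and of 8491 (7548 to 9402) in St (log2 -0.43 ± 0.04, adjusted P-value 1.49e-08). Gnai3 was 1.33-fold higher in Ce, with medians of 2435 (2201 to 2665) and 1798 (1665 to 1931; log2 -0.41 ± 0.05, adjusted P-value 4.31e-07). None of these 4 genes overlapped between regions. Gnai2 did not pass (0.11, 95% interval -0.00 to 0.23). The transducins of rods and cones, Gnat1 and Gnat2, did not exceed 16.6 and 5.94 normalized counts in any sample.

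Of the Gq class, Gnaq was the most abundant per kilobase of merged exons in Ce, while in St it lay close to Gna11 (1550 ± 125 and 1517 ± 63.4, SD, n = 7) and below it with the longest transcript as length (1698 and 1820). Gnaq differed by 0.02 ± 0.04 (adjusted P-value 0.72), with medians of 9371 in Ce and 9293 in St. Gna11 was 1.44-fold higher in St (medians 4281 and 6142). Gna15, best known from blood cells, was 3.49-fold higher in St but rested on 12.8 to 30.6 normalized counts in Ce and 67.2 to 92.6 in St. Gna14, which was below the filter, was listed at 2.52 to 8.39 in Ce and 24.7 to 48.6 in St. In the G12/13 class, Gna13 was 1.10-fold higher in Ce with overlapping values (3307 to 5014 against 3308 to 3967; log2 -0.14 ± 0.05, adjusted P-value 0.024), and this call was lost without CeCo replicate 0, StHi replicate 0 or StHi replicate 2 (adjusted P-value up to 0.054). Gna12 did not pass (0.09, 95% interval -0.01 to 0.18).

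All 4 tested β subunits were higher in St. Gnb2 was 2.43-fold higher, with a median of 6292 (5464 to 6936) in Ce and of 15114 (14160 to 15797) in St. Gnb5, the β subunit that pairs with RGS proteins of the R7 family in place of a γ subunit, was 2.11-fold higher, with medians of 5311 (5028 to 5730) and 11601 (9951 to 12309). Gnb1 was 1.39-fold higher and remained the highest β subunit per kilobase in both regions, at 59.1% ± 1.46 (SD, n = 8) of the class in Ce and 47.4% ± 2.47 (n = 7) in St. Gnb4 was 1.59-fold higher. None of the 4 overlapped between the regions. Gnb3, the cone and bipolar cell β subunit, was listed at 1.98 to 21.3 in all samples.

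The γ subunits exchanged their leading member between the regions. Of 9 tested, 6 were higher in St and 2 higher in Ce. Gng7, which forms the striatal Golf heterotrimer and lies on the minus strand at chr10:80948624-81014945 (GRCm38), had a median of 1096 (877 to 1300) in Ce and of 54433 (46917 to 64805) in St, and was 51.2-fold higher in St (log2 5.68 ± 0.09, adjusted P-value 7.96e-18). Gng13, at chr17:25717171-25719406 on the plus strand and known as the γ partner of the taste G protein, had a median of 4651 (3653 to 5711) in Ce and of 448 (403 to 558) in St, and was 9.65-fold higher in Ce (log2 -3.27 ± 0.06, adjusted P-value 1.05e-17). Neither gene had overlapping values.

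Per kilobase of merged exons Gng13 was the highest of all 53 members in Ce, at 5897 ± 1008 (SD, n = 8), and Gng7 the highest in St, at 14420 ± 1885 (n = 7). With the longest transcript as length Gng7 stayed the highest in St, while Gnas was the highest in Ce. Gng13 made up 45.9% ± 3.39 of the γ subunit level per kilobase in Ce and 2.48% ± 0.38 in St, and Gng7 made up 2.23% ± 0.31 and 58.5% ± 4.21. Gng3, a neuronal γ subunit, held the second place in both regions with 26.0% ± 1.89 and 15.9% ± 2.23. Over 51.6% of its exon length Gng13 overlaps Chtf18 on the opposite strand. Chtf18 was at 105 ± 14.8 in CeCo and 100 ± 8.84 in CeHi, a small part of the level of Gng13.

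**Figure D2:**
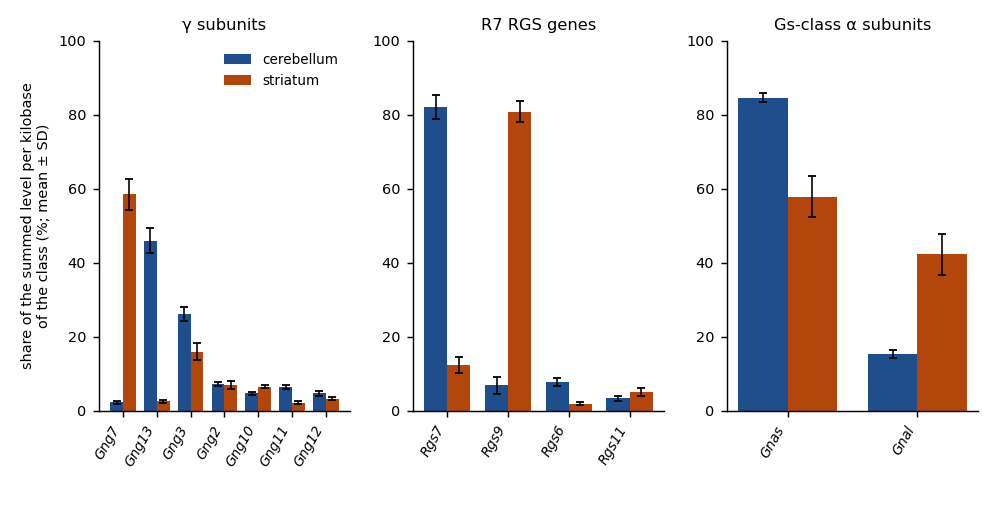
Share of single genes in the summed level per kilobase of their class, in percent (mean ± SD of 8 Ce and 7 St samples), for γ subunits above 4% in either region, the 4 R7 RGS genes and the pair of Gs-class α subunits. Gng13 (45.9%) leads in Ce and Gng7 (58.5%) in St, Rgs7 (82.1%) leads in Ce and Rgs9 (80.8%) in St, and Gnal holds 15.4% in Ce and 42.2% in St.

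The 250 bases before the start of these γ subunit genes are shown because the genes mark opposite regions. Sequences are from RefSeq (GRCm38.p6), 5′ to 3′ on the strand of the gene, for the first start listed. Capitals mark every match, on either strand, of the TATA box letters TATAAA, of the CCAAT box, of the GC box GGGCGG or of TGACG, the core of the cAMP response element, and matches can overlap. The Gng7 window is chr10:81014926-81015175 and that of Gng13 is chr17:25716922-25717171.
Gng7: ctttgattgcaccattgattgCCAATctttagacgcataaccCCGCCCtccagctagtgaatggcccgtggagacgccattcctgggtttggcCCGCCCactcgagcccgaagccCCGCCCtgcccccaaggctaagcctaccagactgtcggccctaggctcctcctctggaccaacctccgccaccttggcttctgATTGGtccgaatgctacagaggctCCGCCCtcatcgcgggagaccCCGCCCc
Gng13: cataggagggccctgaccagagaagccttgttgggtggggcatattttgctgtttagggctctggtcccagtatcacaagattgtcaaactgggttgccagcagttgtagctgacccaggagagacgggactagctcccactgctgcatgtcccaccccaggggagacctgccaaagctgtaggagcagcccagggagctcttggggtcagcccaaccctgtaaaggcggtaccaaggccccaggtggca
The Gng7 window held 5 GC boxes and 2 CCAAT matches and 15 CG pairs, and the Gng13 window held none of the 4 motifs and 2 CG pairs.

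Of 53 members, 39 had a window in this table. GGGCGG was in 46.2% of these against 32.9% of all 27025 genes with a window, CCAAT in 28.2% against 34.5%, TGACG in 17.9% against 17.9% and TATAAA in 12.8% against 13%. Among the members higher in St, 11 of 22 held GGGCGG and 4 held TGACG, and among those higher in Ce, 3 of 7 and 1. The median CG count of the members was 15 against 6 for all genes. Here all genes are those with a window, tested or not, unlike the 15213 tested genes used as background elsewhere. A match describes these letters and does not show a site.

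Of the other γ subunits, Gng4 had a median of 69.1 (36.1 to 162) in Ce, with the highest value in CeHi replicate 3, and of 2261 (2044 to 2951) in St. It was 33.4-fold higher in St (log2 5.06 ± 0.23, adjusted P-value 5.33e-11). Without CeHi replicate 3 the difference was 5.27. Gng10 was 2.70-fold, Gng2 1.80-fold, Gng12 1.35-fold and Gng3 1.17-fold higher in St. Gng10 shares 72.0% of its exon length with a read-through gene on its own strand, so its level is uncertain. Gng11 was 1.52-fold higher in Ce with overlapping values (652 to 811 against 341 to 662; log2 -0.61 ± 0.09, adjusted P-value 1.09e-05). Gng5 fell just outside the threshold (-0.11, 95% interval -0.22 to -0.01, adjusted P-value 0.050). Gng8, below the filter, was listed at 6.33 to 30.2.

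The RGS genes held the widest range of region differences, and their families behaved differently. Of 17 tested, 12 were higher in St and 3 higher in Ce, with a median of 1.55 and a range from -2.30 to 8.42. All 3 tested genes of the R12 family and all 3 of the RZ family were higher in St, 3 of the 4 R7 genes were, and the 6 tested R4 genes split into 3 and 3. Rgs8 alone made up 66.3% ± 2.46 (SD, n = 8) of the summed RGS level per kilobase in Ce, and 5.94% ± 0.35 (n = 7) in St. Rgs4 took 43.8% ± 5.09 and Rgs9 16.8% ± 2.13 of it in St, against 3.73% ± 0.63 and 0.46% ± 0.14 in Ce.

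In the R4 family of small RGS proteins, which act on Gi and Gq, Rgs8 and Rgs4 mirrored each other. Rgs8, known from Purkinje cells and located at chr1:153653025-153700323 on the plus strand, had a median of 54365 (45914 to 63012) in Ce and of 10888 (9621 to 12190) in St, and was 4.91-fold higher in Ce (log2 -2.30 ± 0.05, adjusted P-value 9.22e-17). Rgs4, at chr1:169741477-169747642 on the minus strand, had a median of 936 (853 to 1268) in Ce and of 26742 (17664 to 32498) in St, and was 27.2-fold higher in St (log2 4.76 ± 0.11, adjusted P-value 4.87e-15). The values of the regions did not overlap for either gene. Rgs5, the pericyte gene next to Rgs4 at a distance of 45.7 kb on the other strand, differed by 0.18 ± 0.07 (adjusted P-value 0.029) with overlapping values.

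Rgs2, which prefers Gqα and is induced by neuronal activity, had a median of 786 (653 to 1043) in Ce and of 4919 (4085 to 6622) in St, and was 6.42-fold higher in St (log2 2.68 ± 0.10, adjusted P-value 3.11e-13). Rgs16 had a median of 931 (847 to 1115) in Ce and of 418 (385 to 580) in St, 2.12-fold higher in Ce (log2 -1.08 ± 0.06, adjusted P-value 3.65e-11). Rgs3 had a median of 2341 (2132 to 2723) in Ce and of 1215 (1116 to 1552) in St, 1.90-fold higher in Ce (log2 -0.92 ± 0.05, adjusted P-value 2.02e-11). The groups did not overlap for these 3 genes. Of the Rgs3 sequence, 11.4% of 50-base windows also occur in another gene. Rgs13, a lymphocyte gene that was below the filter, had at most 2 fragments in any Ce sample and 18 to 34 in the St samples, so it was at least 9.57-fold higher in St. Rgs1, Rgs18 and Rgs21, known from blood and taste cells, did not exceed 10.7, 6.73 and 1.05 normalized counts.

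In the R7 family, whose members work as dimers with Gnb5, the leading gene differed between regions. Rgs9, at chr11:109225355-109298129 on the minus strand, had a median of 273 (124 to 361) in Ce and of 20007 (17072 to 25276) in St, and was 85.7-fold higher in St (log2 6.42 ± 0.17, adjusted P-value 4.13e-13). Rgs7 did not differ detectably (-0.02, 95% interval -0.14 to 0.11), with medians of 2839 and 2963. Per kilobase Rgs7 thus held 82.1% ± 3.18 (SD, n = 8) of the R7 level in Ce, and Rgs9 held 80.8% ± 2.84 (n = 7) in St. Rgs11 had a median of 81.3 (62.2 to 108) in Ce and of 795 (669 to 1071) in St and was 9.95-fold higher in St (log2 3.31 ± 0.12, adjusted P-value 8.55e-14). Rgs6 was 1.61-fold higher in St with overlap. Rgs7bp, the membrane anchor of R7 dimers, was abundant in both regions and 1.18-fold higher in St (adjusted P-value 0.026), with overlap, and its retinal counterpart Rgs9bp was listed at 2.67 to 11.9.

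**Figure D3:**
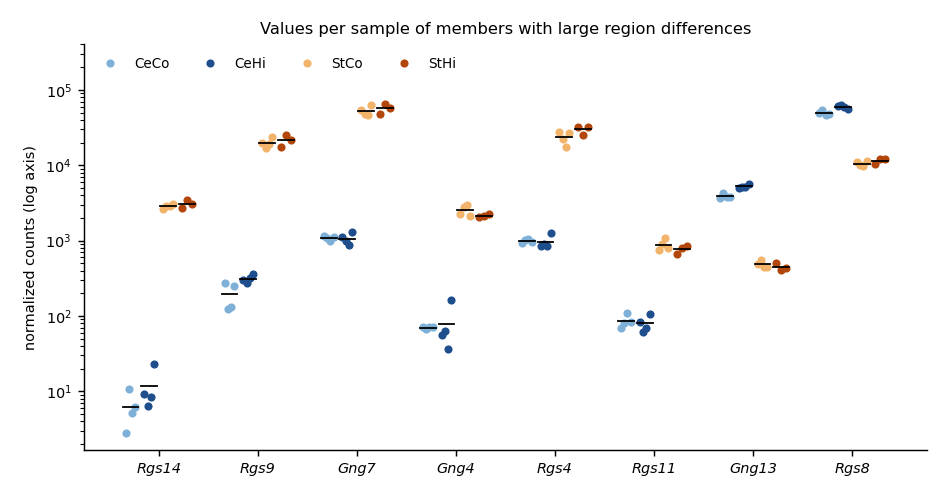
Normalized counts per sample (log axis) of the 6 members with the largest differences to the St side and the 2 with the largest to the Ce side, in the 4 groups, with black bars at group means. The regions are separated for every gene, and CeHi replicate 3 is the highest Ce sample of 6 of the 8 genes: Rgs14 (23.2), Rgs9 (361), Gng7 (1300), Gng4 (162), Rgs4 (1268) and Gng13 (5711).

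In the R12 family, whose larger members carry further signalling domains, Rgs14 showed the largest difference of all members. Its values were 2.80, 10.7, 5.12 and 6.23 in CeCo and 9.25, 6.33, 8.34 and 23.2 in CeHi. In St they were 2624, 2922, 2888 and 3032 in StCo and 2734, 3431 and 3106 in StHi. It was 342-fold higher in St (log2 8.42 ± 0.25, adjusted P-value 5.58e-14), and the Ce level was close to that of a few fragments. Without CeHi replicate 3 the log2 difference was 8.60. Rgs12 was 5.33-fold (medians 474 and 2522) and Rgs10 2.92-fold higher in St (medians 671 and 1926), without overlap. Microglia, in which Rgs10 is also known, had 10 of 10 markers higher in St with a median log2 difference of 2.04, and their part in the Rgs10 difference was not tested.

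The RZ family acts on Gz and Gi. Rgs20 had a median of 422 (386 to 522) in Ce and of 2505 (1893 to 2759) in St, and was 5.52-fold higher in St (log2 2.47 ± 0.09, adjusted P-value 7.43e-14). Rgs19 was 3.05-fold higher (medians 223 and 675) and Rgs17 2.57-fold higher (medians 2295 and 6022), again without overlap. The α subunit Gnaz, whose product is a substrate of this family, was 2.25-fold higher in St. Rgs22, which lies outside these families, did not pass (0.20, 95% interval -0.41 to 0.81).

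Upstream windows of Rgs9, Rgs4 and Rgs8 are shown for the RGS genes that lead in either region, marked in the same way. They are chr11:109298182-109298431, chr1:169747643-169747892 and chr1:153652787-153653036. Rgs14 had no entry.
Rgs9: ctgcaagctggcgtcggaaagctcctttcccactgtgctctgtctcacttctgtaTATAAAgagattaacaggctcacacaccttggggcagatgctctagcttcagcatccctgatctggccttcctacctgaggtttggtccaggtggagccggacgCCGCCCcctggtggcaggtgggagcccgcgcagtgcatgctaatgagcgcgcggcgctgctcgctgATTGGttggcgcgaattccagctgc
Rgs4: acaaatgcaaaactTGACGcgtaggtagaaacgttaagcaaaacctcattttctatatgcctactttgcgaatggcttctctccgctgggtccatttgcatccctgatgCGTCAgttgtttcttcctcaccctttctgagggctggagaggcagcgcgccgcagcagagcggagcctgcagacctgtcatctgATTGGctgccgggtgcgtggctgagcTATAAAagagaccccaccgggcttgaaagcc
Rgs8: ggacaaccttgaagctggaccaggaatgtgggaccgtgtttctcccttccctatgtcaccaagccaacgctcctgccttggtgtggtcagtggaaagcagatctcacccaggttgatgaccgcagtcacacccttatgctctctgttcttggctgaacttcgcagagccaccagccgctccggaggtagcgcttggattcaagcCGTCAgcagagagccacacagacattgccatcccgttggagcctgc
Rgs4 and Rgs9 each held 1 TATAAA and 1 CCAAT match. Rgs4 further held 2 TGACG matches and Rgs9 1 GC box, whereas the Rgs8 window held 1 TGACG match and neither TATAAA nor CCAAT.

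The second comparison asked which members differ between the lines in the cerebellum, as CeHi minus CeCo. In the Ce of Hi mice 4 members were over-expressed and none under-expressed: Gng13, Rgs10, Rgs8 and Gng5. This is 4 of 43 against 5.94% of all genes tested (2.94% over-expressed and 2.99% under-expressed in Hi), and the differences were between 0.25 and 0.43 on the log2 scale. The groups did not overlap for 8 members, all higher in CeHi, against a background of 13.3% in either direction, 6.88% higher in Hi and 6.44% higher in Co. Of the 43 members 29 had a positive difference, against 49.4% of all genes. The count was 2 without CeCo replicate 1, 1 without CeCo replicate 2, 2 without CeHi replicate 1 and 3 without CeHi replicate 3.

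Gng13 showed the clearest difference. Its values were 3653, 4310, 3757 and 3802 in CeCo and 4992, 5074, 5167 and 5711 in CeHi. Every CeHi sample was above every CeCo sample, and the difference was 0.43 ± 0.08 (SE, log2; 1.34-fold; adjusted P-value 0.0042), which passed under all of the 12 other settings and 15 omissions of single samples. Chtf18, its overlapping neighbour on the other strand, differed by -0.06 (adjusted P-value 0.89).

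Rgs8, the dominant RGS gene of this region, was at 48987, 53742, 45914 and 48267 in CeCo and at 60777, 63012, 59925 and 54988 in CeHi. All CeHi values were higher and CeHi replicate 3 was the lowest of them. The difference was 0.27 ± 0.07 (1.21-fold, adjusted P-value 0.026), and it passed in 9 of 15 omissions of single samples. Of the Purkinje cell markers, in which Rgs8 is known, 0 of 10 passed in this contrast by limma and their median difference was -0.01, with sums of 348072 to 409831 normalized counts in CeCo and 347684 to 385954 in CeHi. Granule cell markers, none of which passed, had a negative difference in 10 of 10 genes (median -0.16). Their sums were 292222 to 331600 normalized counts in CeCo and 269470 to 297773 in CeHi. Markers of pericytes and vascular smooth muscle had a negative difference in 9 of 10 genes and oligodendrocyte markers a positive one in 8 of 10, none past the threshold. The part of these cell types in the Rgs8 difference was not tested.

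Rgs10 was at 625, 571, 516 and 636 in CeCo and at 706, 713, 724 and 917 in CeHi. CeHi replicate 3 stood above the other 3, which were themselves above all CeCo samples. The difference was 0.37 ± 0.09 (1.29-fold, adjusted P-value 0.018), and 0.28 without CeHi replicate 3 (adjusted P-value 0.043). Of 10 microglia markers 3 (C1qb, Siglech and Fcrls) were over-expressed in CeHi and 7 did not pass, with a median of 0.07. Their sums were 5343 to 5939 normalized counts in CeCo and 5421 to 6854 in CeHi, none of them was at 0, and their part in the Rgs10 difference was not tested.

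Gng5, a widely expressed γ subunit, was at 853, 796, 881 and 918 in CeCo and at 978, 1006, 1084 and 1035 in CeHi. Again the groups did not overlap. The difference of 0.25 ± 0.07 (1.19-fold) passed narrowly (adjusted P-value 0.044) and held in 6 of 15 omissions of single samples. With the replicate number as a block the call was lost (adjusted P-value 0.059).

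Beyond the threshold, Rgs9 was at 272, 124, 131 and 248 in CeCo and at 302, 273, 318 and 361 in CeHi, a difference of 0.77 ± 0.24 (adjusted P-value 0.081) at a level of 0.62% to 1.82% of the StCo mean. Rgs14 differed by 0.77 ± 0.34 (adjusted P-value 0.22) and by 0.41 without CeHi replicate 3. Of 13 medium spiny neuron markers 11 had a positive difference in the same contrast, with a median of 0.34 and none past the threshold. Rgs2 was at 653 to 764 in CeCo and 808 to 1043 in CeHi (0.37 ± 0.13, adjusted P-value 0.12). Of 12 immediate early genes 8 had a positive difference, with a median of 0.27, 3 at an unadjusted P-value under 0.05 and none past the threshold by limma (lowest adjusted P-value 0.076). The part of these markers and genes in the Rgs9, Rgs14 and Rgs2 differences was not tested. Rgs12 (0.23, adjusted P-value 0.067) and Gna13 (0.25, adjusted P-value 0.051) were also just outside the threshold.

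**Figure D4:**
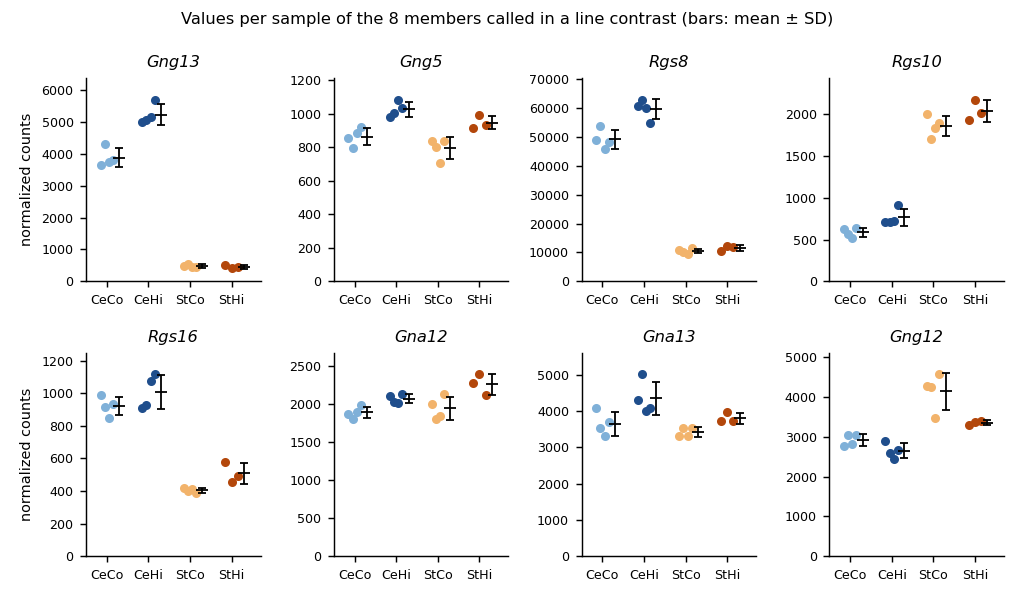
Normalized counts per sample of the 8 members that passed the test in a line contrast, in the 4 groups, with mean ± SD beside the points. In Ce the CeHi points of Gng13, Gng5, Rgs8 and Rgs10 lie above all CeCo points, and in St the StHi points of Gng12 (3287 to 3410) lie below all StCo points (3480 to 4570).

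The same question in the striatum (StHi minus StCo) gave 1 of 43 members, against 2.66% of all genes (1.49% over-expressed and 1.17% under-expressed in Hi). Gng12, a γ subunit found in many tissues, was at 4274, 4250, 3480 and 4570 in StCo and at 3287, 3379 and 3410 in StHi. All 3 StHi samples were below all StCo samples, and the difference was -0.30 ± 0.08 (1.23-fold lower). The adjusted P-value of 0.0497 was at the threshold, and the call was lost in 14 of 15 omissions of single samples, with adjusted P-values up to 0.14, and with the replicate number as a block (0.061). The groups did not overlap for 8 members, 6 higher and 2 lower in StHi, against a background of 13.1% (7.2% and 5.87%).

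Those higher in all StHi samples were Rgs16, Gna15, Gng5, Rgs3, Gna13 and Gnb2, with differences from 0.08 to 0.32, none of which passed. Rgs16 was at 418, 402, 410 and 385 in StCo and at 580, 454 and 490 in StHi (0.32 ± 0.09, adjusted P-value 0.079). Rgs17 was lower in all StHi samples (-0.19, adjusted P-value 0.26). The genes with the largest region differences did not pass between the lines in St: Gng7 was at 46917 to 62043 in StCo and 48125 to 64805 in StHi, Rgs9 at 17072 to 23344 and 17488 to 25276, and Rgs4 at 17664 to 27293 and 25467 to 32498. Markers of cortical pyramidal cells, which a striatal dissection can include, had a negative difference in 8 of 8 genes (median -0.61, none past the threshold), and those of choroid plexus a positive one in 10 of 10 (median 0.65, none past the threshold). Oligodendrocyte markers had a positive difference in 9 of 10 genes (median 0.40, none past the threshold, 8 at an unadjusted P-value under 0.05 by limma), with sums of 210513 to 304430 normalized counts in StCo and 323511 to 365642 in StHi. Of 10 microglia markers 3 were over-expressed in StHi, with a median of 0.09 and sums of 19429 to 21138 and 19849 to 21413. Their part in the striatal values was not tested.

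Over both regions together, as the mean of the 2 line differences from the same samples, 7 of 43 members passed against 8.48% of all genes: 6 were over-expressed and 1 under-expressed in Hi (background 4.34% and 4.14%). Differences were small, between 0.17 and 0.25 in size. Both members of the G12/13 class were among them, as were 3 RGS genes and 2 γ subunits. The count was 3 without StHi replicate 1 and 6 without CeHi replicate 3.

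Gng5 was higher by 0.25 ± 0.05 (adjusted P-value 0.0051), with 0.25 in Ce and 0.25 in St. Its StCo values were 837, 802, 702 and 839 and its StHi values 917, 990 and 932. It was thus separated between the lines in each region and passed under every setting and omission tried for this contrast.

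Gng12 was lower by 0.22 ± 0.05 (adjusted P-value 0.014), with 2763, 3045, 2821 and 3034 in CeCo and 2885, 2582, 2438 and 2679 in CeHi. In Ce the groups overlapped. This result also passed in all 15 omissions.

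Gna12 was at 1868, 1799, 1894 and 1982 in CeCo, at 2096, 2025, 2008 and 2126 in CeHi, at 1993, 1803, 1834 and 2124 in StCo and at 2267, 2384 and 2111 in StHi. The difference was 0.17 ± 0.04 (adjusted P-value 0.022). The lines did not overlap in Ce and overlapped in St by 1 StCo sample. Of its exons 13.3% overlap Amz1 on the other strand, which differed in Ce by 0.23 (adjusted P-value 0.40).

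Gna13 was at 4094, 3533, 3307 and 3691 in CeCo, at 4314, 5014, 4006 and 4098 in CeHi, at 3308, 3539, 3315 and 3537 in StCo and at 3721, 3967 and 3717 in StHi. The difference was 0.20 ± 0.05 (adjusted P-value 0.027). All StHi samples were above the StCo samples, and in Ce CeCo replicate 0 lay within the CeHi range.

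The 3 RGS genes were Rgs10 (0.25 ± 0.06, adjusted P-value 0.023), Rgs8 (0.20 ± 0.05, adjusted P-value 0.021) and Rgs16 (0.22 ± 0.06, adjusted P-value 0.040). In St, Rgs10 was at 2003, 1707, 1830 and 1895 in StCo and at 1926, 2176 and 2011 in StHi. Rgs8 was at 10888, 10160, 9621 and 11444 in StCo and at 10426, 12190 and 11920 in StHi. Both overlapped in St. Rgs16 in Ce was at 986, 916, 847 and 936 in CeCo and at 909, 925, 1073 and 1115 in CeHi, with overlap, and its result passed in 5 of 15 omissions and was lost with same-numbered Co samples as a block (adjusted P-value 0.052). Rgs8 and Rgs16 are neighbours on chromosome 1, on the same strand and 40.0 kb apart. Over both regions 4 of 10 microglia markers passed as higher and 1 as lower in Hi (median 0.06). Of the other lists, 3 of 10 oligodendrocyte markers (median 0.27) and 2 of 10 astrocyte markers (median 0.04) passed as higher, and 2 of 10 markers of pericytes and vascular smooth muscle (median -0.15) as lower. Their part in the line differences of the members was not tested.

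Finally, the difference between the line effects of the regions (StHi minus StCo, less CeHi minus CeCo) passed for 0 of 43 members by limma, against 0.532% of all genes. At an unadjusted P-value under 0.05 by limma there were 9 of the 43 members, a larger share than the 9.56% of all genes. At the adjusted threshold edgeR on the recovered fragments gave 1 and DESeq2 gave 2. Gng13 came nearest, with 0.43 in Ce and -0.12 in St (interaction -0.55 ± 0.12, adjusted P-value 0.055). In St its values were 495, 558, 440 and 448 in StCo and 503, 403 and 435 in StHi, which overlap. The interaction of Gng13 had adjusted P-values of 0.044 without CeCo replicate 1, 0.033 without StCo replicate 2 and 0.021 without StHi replicate 0, and of 0.033 with same-numbered Co samples of the regions as a block. Rgs3 was the nearest in the other direction, with -0.16 in Ce and 0.22 in St (interaction 0.38 ± 0.10, adjusted P-value 0.13).

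**Figure D5:**
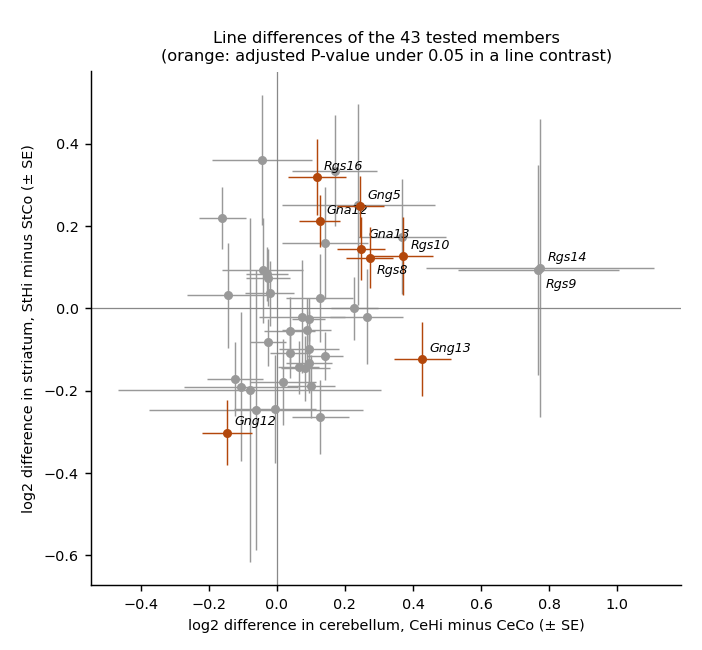
Line difference of each tested member in Ce (horizontal) and in St (vertical), Hi minus Co on the log2 scale with standard errors; orange points passed the test in a line contrast. Gng5 (0.25 and 0.25) lies on the diagonal, Gng12 (-0.15 and -0.30) is negative in both, and Gng13 (0.43 and -0.12) lies to the right and below the zero line.

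Other genes of the pathway, a list of 50 receptor kinases, arrestins, channels, phospholipases and accessory proteins, were examined beside the members. Of 46 tested, 17 were higher in St and 22 higher in Ce, with a median of -0.14. The largest differences to Ce were in Pcp2, a Purkinje cell modulator of Gi/o, with 8256 ± 904 (SD) in Ce and 5.57 ± 2.71 in St (log2 -10.40), in Plcb4, the phospholipase C-β of Purkinje cells (-2.67), and in the channel gene Kcnj3 (-1.55). The largest to St were in Kctd16, a GABA-B receptor auxiliary subunit (4.58), in the channel gene Kcnj5 (3.60) and in Gprin3 (2.48).

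None of these genes passed in the line contrast of Ce. In St, 1 passed: Gpr179, an orphan receptor that anchors R7 dimers in the retina, was at 39.3 ± 6.35 (SD, n = 4) in StCo and at 90.0 ± 24.8 (n = 3) in StHi (1.15 ± 0.23, adjusted P-value 0.0088). Over both regions Gprin1, which binds Goα in neurites, was lower in Hi by 0.26 ± 0.07 (adjusted P-value 0.037), and none passed in the interaction.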

How the data were processed

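RNA-seq of 15 samples was analysed, grouped by their deposited labels. Per the labels and the study's methods, TopHat2 placed the paired reads (100 bases each) on GRCm38, and Cuffnorm 2.2.1 scaled each gene's fragment count by a factor for library size. The deposited values (unit signal) were made in this way by the authors. In each sample 99.4% to 99.7% of low values were whole multiples of 1 fragment (within 0.01), so fragments could be recovered. The annotation and strand setting of the counting are not given in the sources used here. A floor of 3 fragments per sample covers counting error only.

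Genes with a CPM of at least 1 in 3 samples (15213) were scaled by trimmed means, transformed as log2(value + 1) and tested with limma (3.58.1, R 4.3.3), with 1 mean per group, trended robust moderation and Benjamini-Hochberg adjustment over all genes tested (two-sided, threshold 0.05). Differences between lines are Hi minus Co, and between regions St minus Ce. Samples came from individual mice, per the study, and whether a Ce and an St sample came from the same mouse is not given in the sources used here. Folds are on this scale and understate those of low genes. The fit was tested on simulated data.

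Full values are given for members past the threshold in a line contrast or the interaction, the 8 largest region differences each way and the highest per length in each family (GENCODE M21 exons). Members and lists were chosen with earlier results of these data known. Alternatives were another pseudocount (0.1), filters, scalings, edgeR 4.0.16 and DESeq2 1.42.0 on recovered fragments, sample weights, replicate blocks, each region alone and each sample left out. Blocks as a random effect were added after seeing the data.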

Additional observations from a re-analysis of the deposited data

Results flagged for a closer look

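In 21 members with full values, 63 groups of 4 samples were examined for a sample far from the other 3, which chance gives in about 1 of 20 groups. Among these, 2 groups had such a sample, and it was CeHi replicate 3 in both. Rgs10 was at 917 normalized counts there, against 706 to 724 in the other CeHi samples. Rgs4 was at 1268 there, against 853 to 895. In the same library the medium spiny neuron markers had a median of 2.01% of their StCo mean, against 0.66% to 0.68% in the other CeHi samples. Their part in the Rgs10 and Rgs4 values was not tested. Without this library the Ce line difference of Rgs10 was 0.28 (adjusted P-value 0.043), as against 0.37 with it, and the region difference of Rgs4 was 4.83, as against 4.76.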

How the results depend on the processing

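The region result changed least: the count of members past the threshold stayed within 1.5 times of 36 under all alternatives. Of 432 values of the 16 members named for it, 429 kept their side of the threshold. These 16 were the 8 largest differences each way among members past the threshold, so most lay far from it and could hardly lose the call. Members nearer to it on the St side, such as Rgs5 and Rgs7bp, were not among them. Over the 33 single-gene results, these 16 among them, 805 of 883 values kept direction and side, 60 lost and 18 gained the call, and 0 changed direction. For the Ce line contrast (4 members) DESeq2 on recovered fragments gave 7, and leaving out each sample gave 1 to 5. For the St line contrast (1 member) the count was 0 with a pseudocount of 0.1, with no filter, with a mean of at least 10, with median of ratios scaling, with no further scaling and with each region fitted alone, 4 with DESeq2, and 0 to 1 with each sample left out. For the line effect over both regions (7 members) leaving out each sample gave 3 to 7. For the interaction (0 members) edgeR and sample quality weights each gave 1 and DESeq2 gave 2, and leaving out each sample gave 0 to 1. Over all genes DESeq2 gave 1390 calls in place of 903 in Ce, 711 in place of 405 in St and 277 in place of 81 in the interaction, and sample quality weights gave 740 in St and 182 in the interaction. The causes were not tested.

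The adjusted P-values of single calls crossed the threshold as follows when 1 sample was left out. In Ce, that of Gng5 was 0.050 to 0.12 without CeCo replicates 0, 1 or 2, CeHi replicates 1, 2 or 3, StCo replicate 1 or StHi replicates 1 or 2. That of Rgs8 was 0.054 to 0.072 without CeCo replicates 0, 2 or 3 or CeHi replicates 0, 1 or 2. That of Rgs10 was 0.051 without CeCo replicate 1 and 0.057 without CeCo replicate 2. In the other direction, Gna13 passed without CeCo replicate 0 (0.021) or CeHi replicate 2 (0.037), Rgs9 without CeCo replicate 0 (0.024) and Rgs12 without CeHi replicate 2 (0.028). In St, Gng12 was at 0.055 to 0.14 in all omissions except that of StCo replicate 2. Over both regions, without StHi replicate 1 it was 0.068 for Gna12, 0.074 for Gna13, 0.068 for Rgs10 and 0.064 for Rgs8. Rgs10 was also at 0.053 without StCo replicate 1, Gna13 at 0.051 without StCo replicate 0 and Rgs8 at 0.062 without StHi replicate 2. Rgs16 was at 0.052 to 0.11 without CeCo replicates 1, 2 or 3, CeHi replicates 2 or 3, StCo replicates 1, 2 or 3 or StHi replicates 0 or 2.

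The replicate numbers were checked for pairing. Same-numbered CeCo and StCo samples had residual correlations of 0.17 to 0.28, each higher than with any other number of StCo. Those of CeHi and StHi were -0.08 to 0.05 and those between the lines -0.22 to 0.20. Differently numbered samples of CeCo and CeHi, which are from different lines, reached 0.47. The numbers were therefore not used as pairs throughout, and whether those of the Co line mark shared mice is not given in the sources used here. With the replicate block the counts of members were 38 for region (38 also with a block within line), 4 in Ce, 1 in St, 8 over both regions and 0 in the interaction. With the replicate block the adjusted P-value of Gng5 in Ce was 0.059 and that of Gng12 in St 0.061, while Gna13 passed in Ce (0.042). The 1 member counted in St with this block was thus not Gng12. In fits chosen after seeing the data, the numbers entered as a random effect. With Co and Hi samples paired (consensus correlation 0.022) the counts were 37, 4, 1, 7 and 0. With the replicate block in Co alone (0.17) they were 37, 4, 1, 6 and 1: over both regions Rgs16 was lost (adjusted P-value 0.052), and Gng13 passed in the interaction (0.033).

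Over the 12 families in both regions, the highest gene per kilobase was another one in 3 of 24 cases with the longest transcript in place of merged exons: Gnao1 and not Gnai1 in Ce, and Gna11 and not Gnaq and Rgs20 and not Rgs17 in St. Depth limits the genes near the floor, Rgs14 in Ce among them.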

Other observations

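The StCo samples differed among themselves in several striatal members, in 2 opposite patterns. Relative to the StCo mean, the medium spiny neuron markers were at 108%, 85.6%, 86.9% and 115% in StCo replicates 0 to 3. Gng7 (103%, 91.5%, 88.6% and 117%), Gnal (108%, 91.3%, 84.7% and 116%), Rgs20 (115%, 89.1%, 79.8% and 116%) and Rgs4 (116%, 94.2%, 75.4% and 114%) were high in the same replicates. Gng4 (89.7%, 110%, 116% and 84.3%) and Rgs11 (86.7%, 102%, 122% and 89.6%) were high in the other replicates. Rgs9 (101%, 85.9%, 96.1% and 117%) and Rgs2 (98.7%, 87.6%, 101% and 112%) kept to the marker pattern only in part. Both were lowest in StCo replicate 1 and highest in StCo replicate 3. Rgs14 (91.5%, 102%, 101% and 106%) and Rgs12 (96.7%, 104%, 98.3% and 101%) followed neither pattern. In StHi replicates 0 to 2 the markers were at 88.1%, 115% and 110%. Gng7 (90.9%, 122% and 108%), Gnal (85.5%, 112% and 109%) and Rgs20 (88.1%, 112% and 106%) were again low where the markers were low. So were Rgs9 (87.9%, 127% and 108%) and Rgs2 (84.1%, 136% and 125%). Rgs4 (139%, 109% and 136%) did not keep to the pattern and was lowest where the markers were highest. Gng4 (80.3%, 82.8% and 88.8%) and Rgs11 (76.3%, 90.7% and 95.8%) did not run opposite to the markers, both being lowest in StHi replicate 0. The values of a sample share its library across all genes, the pattern was seen in the values and then described, and it was not tested.

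Neighbouring members did not always share their region. Rgs9 and Gna13 lie 64.7 kb apart on chromosome 11 and differed by 6.42 and -0.14 between regions, and Gng13 and Rgs11 lie 484 kb apart on chromosome 17 and differed by -3.27 and 3.31. Gng7 and Gna15, 487 kb apart on chromosome 10, were both higher in St (5.68 and 1.80), as were Gna15 and Gna11 (1.80 and 0.53), which are 4.50 kb apart. These pairs were chosen after their values were seen.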
